A study of Homo sapiens with 6 samples.

Results

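A group of 10 transcription factor genes that lie in super-enhancer regions of acute myeloid leukaemia cells was followed in K562 cells given cortistatin A (CA) or its vehicle: CEBPA, CEBPB, IRF1, IRF8, ETV6, MEF2C, RUNX1, SPI1, ERG and FLI1. They were chosen by symbol from the platform annotation, where 9 of the 10, out of 19775 genes in all, had a probe set of a single symbol, with 24 such probe sets out of 54613 other than controls. RUNX1 had no such probe set: all 13 probe sets that list it also list other loci, so it is not analysed here. K562 cells are a permanent line of chronic myelogenous leukaemia that depends on the BCR-ABL1 fusion kinase. The wells were given either 25 nM CA, which blocks CDK8 and CDK19, the kinases of Mediator, for 3 h, or DMSO, the vehicle, for the same 3 h. Both groups had 3 wells of this 1 line, the labels give neither a genetic change nor another agent, and each well was read on 1 Affymetrix U133 Plus 2.0 array. Nothing in the labels says that the wells came from separate cultures, so p values measure the spread between these wells, which may be technical.

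A super-enhancer is a cluster of enhancers that binds unusually much Mediator, the complex that links transcription factors to RNA polymerase II. In myeloid cells several of the factors studied here bind such regions, their own included. C/EBPalpha (CEBPA) and PU.1 (SPI1) drive granulocyte and monocyte development, and IRF8 works with PU.1 in monocytes and dendritic cells. C/EBPbeta (CEBPB) acts in stress and emergency granulopoiesis, IRF1 mediates interferon responses, and MEF2C is a MADS-box factor of monocyte, lymphoid and megakaryocyte development. ETV6, ERG and FLI1 are ETS domain factors of blood stem cells, with FLI1 and ERG also active in megakaryocytes.

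In the GRCh38.p14 gene table of RefSeq, MEF2C spans chr5:88717117-88904105 and IRF1 lies on the same chromosome at chr5:132481609-132490773. The C/EBP genes are at chr19:33299934-33302534 (CEBPA) and chr20:50190583-50192690 (CEBPB), and IRF8 is at chr16:85899162-85922609. The ETS genes are at chr12:11649674-11895377 (ETV6), chr11:47354860-47378547 (SPI1), chr11:128685132-128813267 (FLI1) and chr21:38367261-38661783 (ERG). RUNX1 spans chr21:34787801-35049302. MEF2C has 7 start windows in the RefSeq promoter table, each of 250 bases before to 50 after a start. The arrays do not tell which of these starts was used. Of the members, MEF2C was the gene whose probe sets had p under 0.05, so 3 of its windows are shown, all read on the minus strand: the one richest in CpG, and the 2 that hold a match to a searched motif. Capitals mark the AP-1 consensus (TGA, any base, TCA) in the second, and TTGCNNAA, the C/EBP motif, and the MEF2 consensus in the third.
MEF2C chr5:88883135-88883434: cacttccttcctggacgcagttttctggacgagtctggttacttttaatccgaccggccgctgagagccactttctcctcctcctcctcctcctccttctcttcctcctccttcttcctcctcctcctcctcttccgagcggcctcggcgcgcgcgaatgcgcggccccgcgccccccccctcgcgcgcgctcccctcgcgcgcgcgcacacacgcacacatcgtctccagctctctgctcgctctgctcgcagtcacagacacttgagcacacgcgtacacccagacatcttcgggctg
MEF2C chr5:88785462-88785761: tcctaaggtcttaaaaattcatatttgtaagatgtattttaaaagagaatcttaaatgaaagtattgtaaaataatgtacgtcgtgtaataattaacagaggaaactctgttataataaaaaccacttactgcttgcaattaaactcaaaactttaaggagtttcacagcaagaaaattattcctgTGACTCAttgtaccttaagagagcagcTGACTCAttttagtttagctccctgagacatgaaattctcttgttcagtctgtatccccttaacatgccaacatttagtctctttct
MEF2C chr5:88824295-88824594: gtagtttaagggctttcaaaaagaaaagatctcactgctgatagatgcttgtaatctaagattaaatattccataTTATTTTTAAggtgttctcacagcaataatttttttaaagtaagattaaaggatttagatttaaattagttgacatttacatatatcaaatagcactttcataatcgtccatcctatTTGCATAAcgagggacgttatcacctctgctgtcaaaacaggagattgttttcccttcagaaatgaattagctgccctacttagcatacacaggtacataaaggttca
The first had a GC content of 64.7% and a CpG observed to expected ratio of 1.19, against medians of 58.7% and 0.579 over all 35116 windows. The second, at 31.7% GC, held the AP-1 consensus at 2 places, a motif present in 7.71% of all windows on either strand. The third held 1 match to TTGCNNAA (10.5% of all windows) and 1 to the MEF2 consensus (2.99%), which 1 window of CEBPB also held. Of the other letters searched on both strands over all 19 windows of 8 members, CCGGAAGT (ETS, 4.14% of all windows) and the IRF consensus (GAAA, any 2 bases, GAAA; 3.57%) were in 0, TGTGGT (RUNX, 13.1%) in 1 window, of IRF8, and AGATAA, bound by GATA factors (10.3%), in 2 overlapping windows of ERG. The searched motifs did not overlap each other in the windows shown. SPI1 and FLI1 are not in the promoter table.

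All values are signals after robust multi-array averaging (RMA) on the log2 scale. The arrays correlated with each other at 0.997 across probe sets. CA array 1 lay at -19.0 on the second principal component (24.4% of the variance), against 0.338 to 7.20 for the other 5 arrays. The actin control probe sets differed by group. Their 3' minus 5' signal was 1.14 to 1.31 log2 units on the CA arrays, against 1.40 to 1.49 on the DMSO arrays, without overlap. The GAPDH control probe sets did not separate the groups, at 0.583 to 0.629 on the CA arrays and 0.619 to 0.645 on the DMSO arrays. The exogenous polyadenylated RNAs added as controls were lower on the CA arrays at all 8 of their 3' probe sets. Scaling to them would add 0.196 to every log2 change, and scaling to their 5' probe sets would add 0.0426. All changes given here are therefore relative to the other transcripts on the array, and the 3' scaling would turn any value between -0.196 and 0 positive.

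Which members K562 cells use was asked first. The table has no detection calls, so a threshold was taken from 34 measured genes of tissues such as liver, eye, heart muscle and testis, which blood cells are not known to use. Their 54 probe sets had DMSO means from 1.47 to 5.78 with a median of 3.16, and the 95th percentile, 4.89, was used. Signal also depends on how well a probe set binds, so the threshold sorts signals and does not order genes by transcript number. By it, 4 of the 9 measured members were above background: MEF2C, CEBPB, ETV6 and IRF1. IRF8, CEBPA, SPI1, ERG and FLI1 were not.

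The bright members were MEF2C and CEBPB. CEBPB, on its 1 probe set, had 9.50, 9.38 and 9.40 on the CA arrays, against 9.49, 9.45 and 9.44 on the DMSO arrays. All 6 values lay far over the threshold, and the groups overlapped. MEF2C was above it on all 3 of its probe sets. ETV6 was above it on 2 of 5 probe sets. Its brightest, 225764_at, had a mean of 5.89 ± 0.12 in CA and 6.06 ± 0.07 in DMSO (SD, n = 3 each), and its dimmest, 239740_at, had 3.23 in CA and 3.12 in DMSO.

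IRF1 lay at the edge. Its brighter probe set, 202531_at, had 4.80, 4.74 and 5.04 on the CA arrays, against 4.98, 4.95 and 4.90 on the DMSO arrays, where the threshold was 4.89. Its other probe set averaged 4.02 in CA and 4.01 in DMSO, under the threshold. Without DMSO array 1 or DMSO array 2 the recomputed threshold was not passed by all remaining DMSO arrays, and 3 members were left. IRF8, under the threshold on every array, had 4.34, 4.32 and 4.37 on the CA arrays, against 4.27, 4.33 and 4.19 on the DMSO arrays. Its arrays were within the range of the tissue-restricted genes and above the median of all probe sets.

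The myeloid regulators CEBPA and SPI1, and the ETS factors ERG and FLI1, had signals within the range of the tissue-restricted genes. CEBPA had 3.45, 3.29 and 3.67 on the CA arrays, against 3.47, 3.41 and 3.50 on the DMSO arrays. SPI1, which encodes PU.1, had 3.33, 2.94 and 2.94 on the CA arrays, against 2.97, 3.16 and 3.19 on the DMSO arrays. All 4 ERG probe sets and all 6 FLI1 probe sets were under the threshold, with means of 1.60 to 2.76 for ERG and 1.67 to 3.06 for FLI1 in CA, against 1.53 to 2.76 and 1.71 to 2.97 in DMSO. Such signals do not show that the transcripts are absent, since probe sets differ in affinity and RMA compresses dim values. CEBPA and SPI1 each rest on 1 probe set.

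**Figure D1:**
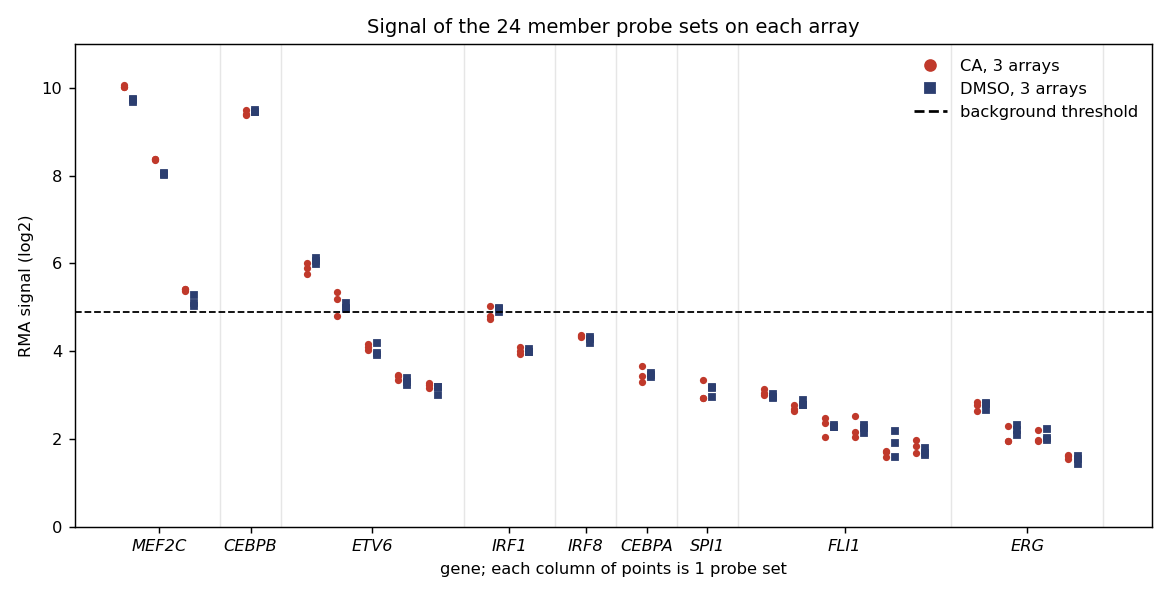
RMA signal (log2, vertical axis) of each of the 24 member probe sets, with 1 column of points per probe set, CA arrays as circles left of DMSO arrays as squares, and the background threshold of 4.89 dashed. All 3 probe sets of MEF2C and the 1 of CEBPB lie above the dashed line. The brighter IRF1 probe set sits on it and the other lies under it, as do those of CEBPA, SPI1, FLI1 and ERG.

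Markers of cell identity were read beside the members. K562 is labelled a chronic myelogenous leukaemia line, and all 10 measured erythroid markers were above background, led by the embryonic globin gene HBE1 (13.27 in CA and 13.27 in DMSO) and with the erythroid factor KLF1 at 8.63 in CA and 8.69 in DMSO. Of 17 measured granulocyte and monocyte genes, many of them known targets of PU.1, C/EBPalpha and IRF8, 2 were above background, LYZ and CTSG. LYZ had 8.86 in CA and 8.90 in DMSO, and CTSG had 5.14 in CA and 5.20 in DMSO. The granule enzyme gene MPO had 2.68 in CA and 2.51 in DMSO, and the monocyte receptor gene CD14 had 2.57 in CA and 2.59 in DMSO. The summed linear signal of the myeloid genes was 613 to 685 in CA and 635 to 667 in DMSO, which overlap. LYZ, the brightest of them, made up most of that sum. In such bulk RNA, fewer cells of a type and less RNA per cell cannot be told apart. Of the megakaryocyte markers 4 of 8 were above background, of the lymphoid markers 1 of 7 and of the stromal markers 2 of 6. The lymphoid one, CD3D, had 9.05 in CA and 9.08 in DMSO, brighter than KLF1. The stromal ones were COL1A1 (6.97 in CA and 6.92 in DMSO) and COL1A2 (5.89 in CA and 5.86 in DMSO). A signal above the threshold therefore does not by itself tell a cell type.

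Relatives of the members were above background in part. Of 23 other ETS genes 14 were above background, the brightest being ELF1 at 8.69 in CA and 8.70 in DMSO. Of the genes listed as C/EBP relatives 4 of 5 were, counting CEBPZ, listed by its symbol. Among other IRF genes 3 of 6 were, and among MEF2 relatives and the class IIa histone deacetylases that bind MEF2 proteins 4 of 6. CBFB, the partner subunit of RUNX proteins, had 10.04 in CA and 10.13 in DMSO, while RUNX2 and RUNX3 were under the threshold.

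**Figure D2:**
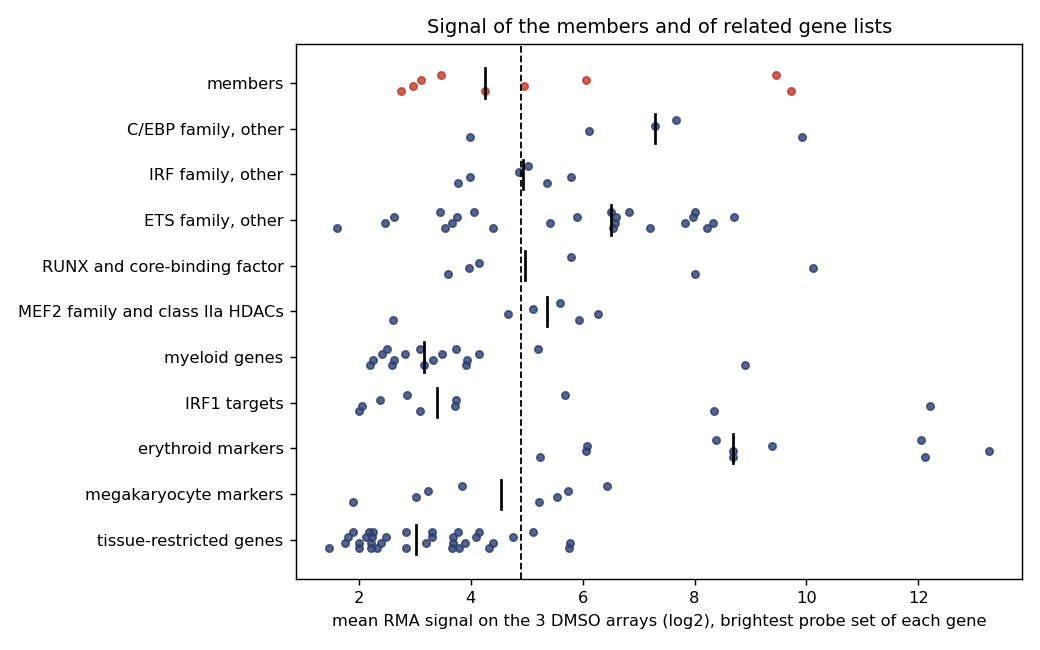
Mean RMA signal on the 3 DMSO arrays (log2, horizontal axis) of the brightest probe set of each gene, with 1 row per gene list, members in red, the list median as a black bar and the background threshold of 4.89 dashed. The 10 erythroid markers all lie right of the dashed line, whereas 15 of 17 myeloid genes lie left of it.

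Whether CA moved the members was tested over the whole array. A linear model with moderated variance (limma) was fitted to the 27307 probe sets with a mean at or above the median of means, 3.49, and called a probe set at a Benjamini-Hochberg adjusted p under 0.05. Of the 24 member probe sets 10 entered, for MEF2C, CEBPB, ETV6, IRF1 and IRF8. By limma, 0 of these 10 were called, where 0.0952% of all tested probe sets were called, and 0 of 5 genes, where 0.0859% of all genes were. At an unadjusted p under 0.05 there were 3 member probe sets, all of MEF2C and all higher in CA, against 9.31% of all probe sets in either direction and 4.55% with a positive change. By gene this was 1 of 5, against 8.61% of all tested genes in either direction and 3.59% with a positive change. The median log2 change was 0.08 over the 10 probe sets and -0.01 over all tested ones, and over the 5 genes -0.03, of the other sign.

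MEF2C was higher on the CA arrays at each of its 3 probe sets. The brightest, 209199_s_at, had 10.03, 10.06 and 10.02 on the CA arrays, against 9.75, 9.68 and 9.72 on the DMSO arrays. Probe set 209200_at had 8.37, 8.35 and 8.38 on the CA arrays, against 8.05, 8.04 and 8.02 on the DMSO arrays. The dimmest, 207968_s_at, had 5.42, 5.37 and 5.41 on the CA arrays, against 5.28, 5.04 and 5.09 on the DMSO arrays. On each, every CA array lay above every DMSO array, with gaps of 0.27, 0.30 and 0.09, a separation seen in 7.09% of all tested probe sets.

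The log2 changes of MEF2C were close to each other across probe sets that differ widely in signal. They were 0.32 (95% confidence interval 0.22 to 0.42) for 209199_s_at, 0.33 (0.24 to 0.43) for 209200_at and 0.26 (0.10 to 0.43) for 207968_s_at. The first is a 1.25-fold change (1.16 to 1.34). Over the 6 arrays the 3 probe sets correlated with one another at 0.890 to 0.981, a description of points that share their arrays. Their adjusted p values in limma were 0.0943, 0.0704 and 0.341, all above the threshold.

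The call on MEF2C depended on the variance model, the filter and the scaling. When the prior variance was allowed to follow the mean signal, 209199_s_at was called at an adjusted p of 7.24e-05 and 209200_at at 0.000386 by limma, where 1.04% of all probe sets were called, 0.659% as higher, and 1.23% of all genes. With that model 207968_s_at had an adjusted p of 0.240. With probe sets under the 75th percentile of means left out, 209199_s_at had a limma adjusted p of 0.00810, where 1.19% of the remaining probe sets were called. On the 3' control scale its change was 0.514 (limma adjusted p = 0.0207), where 13.5% of all tested probe sets were called. Without CA array 1, the array that stood apart, the change of 209199_s_at was 0.32, with a limma adjusted p of 0.218, or 0.000189 with the variance following the mean. With the actin 3' minus 5' signal as a covariate it was 0.28, at an unadjusted p of 0.0396 and an adjusted p of 0.733 by limma. In that fit 0 of all 27307 tested probe sets were called. The actin control moved with the groups, and its part in the result was not tested further.

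**Figure D3:**
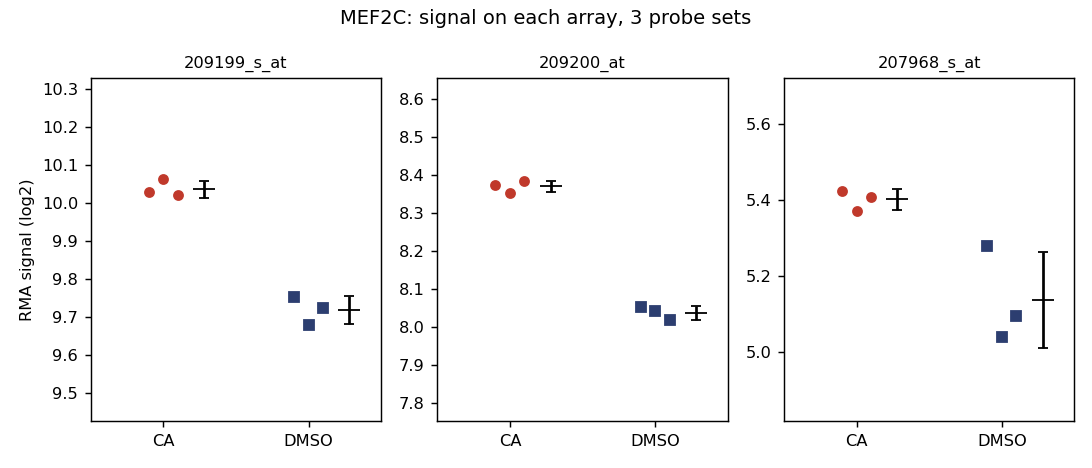
RMA signal (log2, vertical axis, 0.9 units high in each panel and not starting at 0) of the 3 MEF2C probe sets on each array, CA as circles and DMSO as squares, with the mean and SD (n = 3) as black bars. The CA arrays lie above all DMSO arrays in each panel, and DMSO array 1 of 207968_s_at, at 5.28, comes closest to them.

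The other bright member, CEBPB, had a log2 change of -0.03 (95% confidence interval -0.15 to 0.08; limma adjusted p = 0.892). The interval leaves out rises as large as the 0.32 of MEF2C. On the scale of the 3' control RNAs the value would be 0.164 and on that of their 5' ends 0.0112, so its sign is not settled.

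For ETV6, a repressor needed for blood stem cells and platelets, the probe sets disagreed. The brightest had 5.765, 5.898 and 6.002 on the CA arrays, against 6.06, 6.12 and 5.98 on the DMSO arrays, a change of -0.17 (95% confidence interval -0.34 to 0.01; limma adjusted p = 0.555). Its other 4 probe sets had positive fitted changes, of 0.07 to 0.11. The groups overlapped on all 5. Taken as the median of its tested probe sets ETV6 had 0.0879, and on the 3' control scale the brightest had 0.0288.

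The interferon regulatory factors likewise did not pass the test. IRF1 had -0.08 (95% confidence interval -0.28 to 0.11; limma adjusted p = 0.815) on its brighter probe set and 0.01 on the other, and the first would be 0.112 on the 3' control scale. The spread of IRF1 among the CA arrays, an SD of 0.16, exceeded that among the DMSO arrays, 0.04. IRF8 had 0.08 (95% confidence interval -0.04 to 0.20; limma adjusted p = 0.683), with its CA arrays above 2 of the 3 DMSO arrays. With scaling to the 3' control RNAs, which moves all probe sets up, IRF8 was at 0.279 (limma adjusted p = 0.0495), where 13.5% of all tested probe sets were called (3691, against 26 without it).

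The 14 member probe sets under the filter were fitted with no filter. CEBPA had 0.01 (95% confidence interval -0.22 to 0.25) and SPI1 -0.04 (-0.33 to 0.26). The brightest probe set of ERG had 0.00 (-0.18 to 0.18) and that of FLI1 0.09 (-0.06 to 0.24). Over the 21 member probe sets other than those of MEF2C, the median size of change was 0.08 and the largest was a fitted -0.22, for FLI1 204236_at, whose DMSO arrays ran from 1.58 to 2.17. In all 21 the groups overlapped, but the MEF2C probe sets left out here were the ones with separate groups. Of all 24 member probe sets 3 had separate groups, where 12.5% of all probe sets had. For the 14 probe sets under the filter, a difference may be missed at such dim signals, and the intervals apply to the compressed scale.

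**Figure D4:**
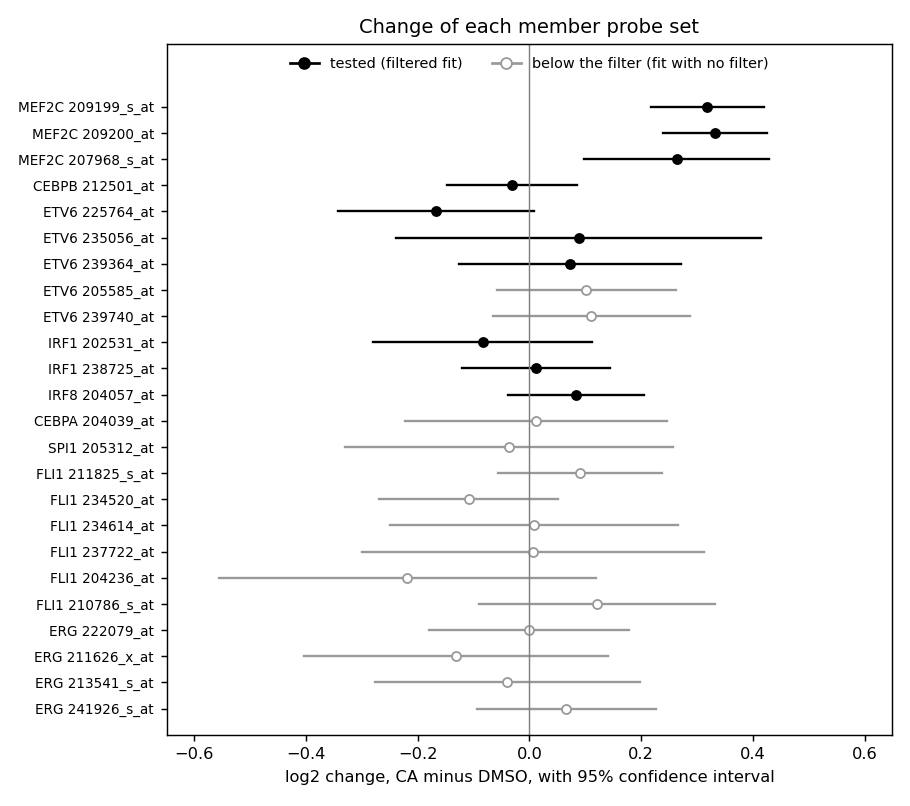
Log2 change, CA minus DMSO (horizontal axis), of the 24 member probe sets with 95% confidence intervals, filled where tested in the filtered fit and open where under the filter and taken from the fit with no filter. The 3 intervals of MEF2C lie right of 0, and the 21 others include 0.

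Relatives and targets of the members were described from lists chosen by role. Beside them, 8.61% of the 12810 tested genes had an unadjusted p under 0.05. List genes under the filter are not in the counts of tested genes. Among those, ETV2 (-0.49), NLRC5 (-0.34), S100A8 (0.25) and CYBB (0.16) had an unadjusted p under 0.05 in the limma fit with no filter. Their adjusted p values there were 0.637 to 0.727. Each was under the background threshold and had separate groups, as 12.5% of all probe sets did. Among the C/EBP relatives 0 of 5 tested were called and 1 had p under 0.05, DDIT3, the stress-induced C/EBP homologue CHOP, at -0.34 (SE 0.06; limma adjusted p = 0.193). With the variance following the mean DDIT3 was called lower by limma, at an adjusted p of 0.00757, where 1.23% of all tested genes were called. On the 3' control scale its change was -0.147. CEBPZ, the brightest of that list and counted in it by its symbol, had 0.06. In the IRF family 0 of 6 were called and 0 had p under 0.05, with IRF2 at -0.13 and IRF3, the brightest, at 0.10.

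Of the 19 other ETS genes tested, 0 were called by limma. At an unadjusted p under 0.05, 5 had a negative change and 1, ETV7, a positive one. ETV7 was under the background threshold. The list median was -0.08, against -0.01 for all genes, with 14 of 19 values under 0. On the 3' control scale the median was 0.115 and 17 of 19 were above 0. ELK3, a SRF partner, had -0.25 (SE 0.08; adjusted p = 0.389) and ELF2 -0.15 (adjusted p = 0.513) by limma, and the brightest, ELF1, -0.01. On the 3' control scale ELK3 was at -0.0568 and ELF2 at 0.0475.

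The MEF2 relatives gave 0 calls by limma in 5 tested and 0 at p under 0.05. MEF2A had -0.13, which is 0.0647 on the 3' control scale, and HDAC5, the brightest, -0.07. Among 3 tested genes known to be driven by MEF2 proteins, 0 were called and 1 had p under 0.05, JUN at -0.17 (limma adjusted p = 0.328), which is 0.0264 on the 3' control scale. NR4A1, an orphan receptor gene, had -0.12. None of the 6 genes listed with RUNX and core-binding factor, corepressor genes included, was called or had p under 0.05 by limma. CBFB had -0.09. The corepressor gene RUNX1T1, under the background threshold, had 0.10.

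Genes that PU.1, C/EBP and IRF factors are known to drive were tested too. Of 7 tested myeloid genes 0 were called and 0 had p under 0.05 by limma. CSF3R, the G-CSF receptor gene, had 0.09 and the integrin gene ITGAM -0.17, both at signals under the background threshold. LYZ, the brightest, had -0.04. Of 5 tested IRF1 targets 0 were called and 0 had p under 0.05 by limma. B2M, the brightest, had -0.04, and PSMB9, under the background threshold, had -0.10. Among the 10 erythroid markers 0 were called by limma and 3 had p under 0.05, all positive: TAL1 (0.22), NFE2 (0.23) and TFRC (0.12). With the variance following the mean these 3 were called higher, where 1.23% of all tested genes were called in either direction. Of the other 7 markers, 4 had positive and 3 negative fitted values, the negative ones being HBE1 (-0.01), HBZ (-0.01) and KLF1 (-0.06). The summed linear signal of the erythroid markers was 20809 to 21324 on the CA arrays and 20548 to 20682 on the DMSO arrays, without overlap. Most of that difference was TFRC, the transferrin receptor gene, at 4863 to 4893 on the CA arrays and 4382 to 4642 on the DMSO arrays. Without it the sums were 15927 to 16431 in CA and 15961 to 16271 in DMSO, which overlap. Whether these markers have a part in the MEF2C values was not tested. Of 5 tested megakaryocyte and 4 lymphoid markers 0 were called by limma. Of each, 1 had p under 0.05 with a positive change, TUBB1 and CD79A. CD79A was under the background threshold. The summed signal of the megakaryocyte markers was 260 to 273 on the CA arrays and 256 to 267 on the DMSO arrays, which overlap.

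The genes whose values over the 6 arrays were most like those of MEF2C were TUBGCP4 (Pearson r = 0.994), AMHR2 (0.993) and RHOH (0.993), a description over 6 arrays in 2 groups. RHOH, a GTPase gene of blood cells, was called by limma at 0.52 (adjusted p = 0.0455). TUBGCP4, a gene of the gamma-tubulin complex, had 0.10 and AMHR2 0.09, with adjusted p of 0.515 and 0.557.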

How the data were processed

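Affymetrix U133 Plus 2.0 arrays of K562 cells, 3 with CA and 3 with DMSO, were used. The authors deposited log2 signals for 54675 probe sets, made with RMA in affy per the submitters' processing notes, with no version given; RMA gives the arrays a common distribution, which hides a shift common to all transcripts. Per the labels, RNA came from an RNeasy kit or TRIzol, not stated by sample. Probe sets were named from the platform annotation (41091 with 1 symbol, 1801 with several, 11721 with none; 62 controls left out). Groups were compared with lmFit and eBayes (limma 3.58.1, R 4.3.3) on the 27307 probe sets at or above the median mean, with no block; a gene was read from its brightest tested probe set. Same-numbered arrays deviated with r of -0.07, 0.01 and 0.06. Such values cannot tell whether the numbers pair wells, and the labels do not say. The number of arrays limits precision: the median SE of a log2 change was 0.07. All members were named, and from each list the called genes or the 2 with the smallest p and the brightest. ETV7, MPO, CD14, KLF1, HBE1, CTSG, RUNX2, RUNX3, HBZ, TUBB1 and CD79A were named after their values were seen. So were CD3D, COL1A1, COL1A2, ETV2, NLRC5, S100A8, CYBB and the erythroid genes at p under 0.05. Members and lists were chosen with earlier results of these data known. Alternatives covered filters, variance, scalings, weights, shared probe sets and left-out arrays.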

Additional observations from a re-analysis of the deposited data

How the results depend on the processing

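Against 0 called member probe sets and 0 called member genes, 2 probe sets and 1 gene (MEF2C) were called with the filter at the 75th percentile, with the prior variance following the mean, and with that model without CA array 1, and 4 probe sets and 2 genes (MEF2C and IRF8) with scaling to 3' controls. Of all probe sets, 1.19%, 1.04%, 0.970% and 13.5% were called under these 4 settings in that order, against 0.0952% without them. Leaving out each array in turn gave 0 calls for both. In those fits only 0.00732% to 0.0183% of all tested probe sets were called, so 0 member calls say little. The count of expressed members was 4, or 2 (MEF2C and CEBPB) with the median over the probe sets of a gene, 3 (IRF1 lost) with the threshold at the highest tissue-restricted probe set, 5 (IRF8 added) with it at the median of all probe sets, and 3 to 4 without each DMSO array. MEF2C kept its direction in all 19 alternatives, from 0.276 to 0.514. Fitted signs turned, in every case short of a call, as follows. With scaling to 3' controls CEBPB was at 0.164, IRF1 0.112, ETV6 0.0288, SPI1 0.159 and ERG 0.194, and to 5' controls CEBPB 0.0112, SPI1 0.00621 and ERG 0.0411. With quantile normalisation again and centring CEBPA was at -0.000349 and -0.00317. With the actin covariate, chosen after seeing the data, IRF1 was at 0.249, ETV6 0.141, ERG 0.0259 and FLI1 -0.0167. ETV6 was at 0.0879 with the median over probe sets, ERG at 0.0226 with array weights and 0.0546 with the variance following the mean without CA array 1 (also chosen after seeing the data), and FLI1 at -0.109 without _x_at and _s_at probe sets. Without each array CEBPA ran from -0.088 to 0.0995, SPI1 from -0.169 to 0.0302 and ERG from -0.0457 to 0.0546. The cause of these shifts was not tested beyond the scalings' own construction.

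With the replicate block MEF2C was at 0.319 (limma adjusted p = 0.442), and calls over all probe sets were 0 against 26. The labels give no pairing beyond the replicate number. CA array 1 deviated most like DMSO array 2 (0.0909). Signal over background limits CEBPA, SPI1, ERG and FLI1.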

Other observations

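RNAs of the members' loci that carry symbols of their own were read as well, chosen after their values were seen. CEBPA-DT, the transcript divergent from CEBPA, had 5.08, 5.27 and 5.18 on the CA arrays, against 5.20, 5.16 and 4.99 on the DMSO arrays, above the background threshold of 4.89, while the probe set of CEBPA itself was under it. Its groups overlapped (change 0.06, limma adjusted p = 0.855). MEF2C-AS1, antisense to MEF2C, averaged 3.24 in CA and 3.17 in DMSO, under the threshold, and RUNX1-IT1, an RNA of a RUNX1 intron, averaged 3.29 in CA and 3.05 in DMSO, both with groups that overlapped.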
